A study of Caenorhabditis elegans with 26 samples.

Results

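Innexins are the proteins that build gap junctions in invertebrates. They assemble into hemichannels, and hemichannels of neighbouring cells dock to form pores through which ions and small molecules pass. In Caenorhabditis elegans they couple neurons and muscles electrically, link the somatic gonad to germ cells, and join epithelial and embryonic cells. The 10 innexin genes described here are unc-7, unc-9, inx-2, inx-3, inx-7, inx-8, inx-9, inx-10, inx-12 and inx-13. Every probe set that the array annotation assigns to 1 of these symbols was taken, which gave 13 of the 22548 probe sets on the array. The 10 genes are among 17118 that the annotation names singly. No probe set named a member together with another gene.

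Of the 13 probe sets, 7 belong to 4 X-linked genes and 6 to 6 autosomal genes. The X-linked genes are unc-7 (192738_at), unc-9 (175603_at and 191823_s_at), inx-2 (173200_s_at and 188634_s_at) and inx-3 (175724_s_at and 192259_s_at). The autosomal genes are inx-7 (183562_s_at), inx-8 (190835_at) and inx-9 (190365_at) on chromosome IV, inx-10 (193006_at) on V, and inx-12 (180366_s_at) and inx-13 (193448_s_at) on I. In the gene table inx-8 lies next to inx-9, and inx-12 lies next to inx-13. A name ending in _s_at, borne by 8 of the 13, means that its probes may bind more than 1 transcript, which makes those values less certain.

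Expression was measured in embryos from bleached gravid adults on 26 arrays in 6 groups, with 1 array per replicate, and the series text calls the replicates biological. XO_TY2222 embryos (8 arrays) have 1 X chromosome and carry the X-linked mutations sdc-2(y74), unc-9(e101) and xol-1(y9) together with her-1(hv1y101), so 1 of the innexin genes is itself mutated in them. Their controls, WT_XX_egg, are wild-type XX embryos from the same kind of egg plate (6 arrays). sdc2_XX embryos (3 arrays) carry sdc-2(y93), and the worms were fed bacteria bearing an sdc-2 plasmid for RNAi. WT_XX_RNAi, their controls, came from N2 worms fed bacteria whose plasmid had no insert (3 arrays). dpy27_XX embryos carry dpy-27(y57) (3 arrays) and have wild-type XX controls from the same NG plates, WT_XX_NG (3 arrays). The 2 XX mutants and the XO strain bear on the dosage compensation complex, which in hermaphrodites loads onto both X chromosomes and reduces transcription from them. Loading needs SDC-2, DPY-27 belongs to the condensin-like core, and in XO embryos the complex is normally inactive. The comparisons here ask how X-linked innexin genes and their autosomal relatives differ when the complex is disrupted or absent.

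Each array holds 1 log2 level per probe set, and levels of different probe sets are not comparable with each other. The titles carry a date, coded here 1 to 5 in calendar order, and nothing says which step the date refers to. XO_TY2222 holds date codes 2 (3 arrays) and 5 (5 arrays), and WT_XX_egg holds codes 2 and 4 (3 arrays each). In the sdc2_XX comparison (codes 5 and 3) and the dpy27_XX comparison (codes 1 and 2) date and genotype coincide and cannot be told apart. Arrays of 1 group and date correlated at 0.984 to 0.998 over all probe sets, lowest in sdc2_XX. Quartiles differed between plate types, so each mutant was set only against wild type from the same plates. In sdc2_XX, sdc-2 fell by 1.37 (SE 0.20) on 173447_s_at and gave -0.36 (limma adjusted p = 0.156) on 175632_at. In dpy27_XX, dpy-27 gave -0.05 (adjusted p = 0.839) on 188603_s_at and rose by 0.81 (SE 0.19) on 171990_x_at. These levels do not check the alleles, since a mutation need not lower its transcript. In sdc2_XX, whose worms were also fed for sdc-2 RNAi, sdc-2 was lower on 173447_s_at (limma adjusted p = 5.25e-05) but not clearly on 175632_at.

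inx-2, inx-3, inx-12 and inx-13 were bright in these embryos, and inx-8 and inx-9 were dim. Both inx-2 and both inx-3 probe sets stood at or above the 95.4th percentile of every array. inx-8 and inx-9, which in the adult couple the gonadal sheath to the germ line, stood between the 5.6th and 26.6th percentile of their arrays, and changes there are close to the array's dimmest signals. The 3 members whose mean over all arrays lay below the median of such means, 6.41, were unc-7 (6.02), inx-8 (4.64) and inx-9 (4.60).

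**Figure D1:**
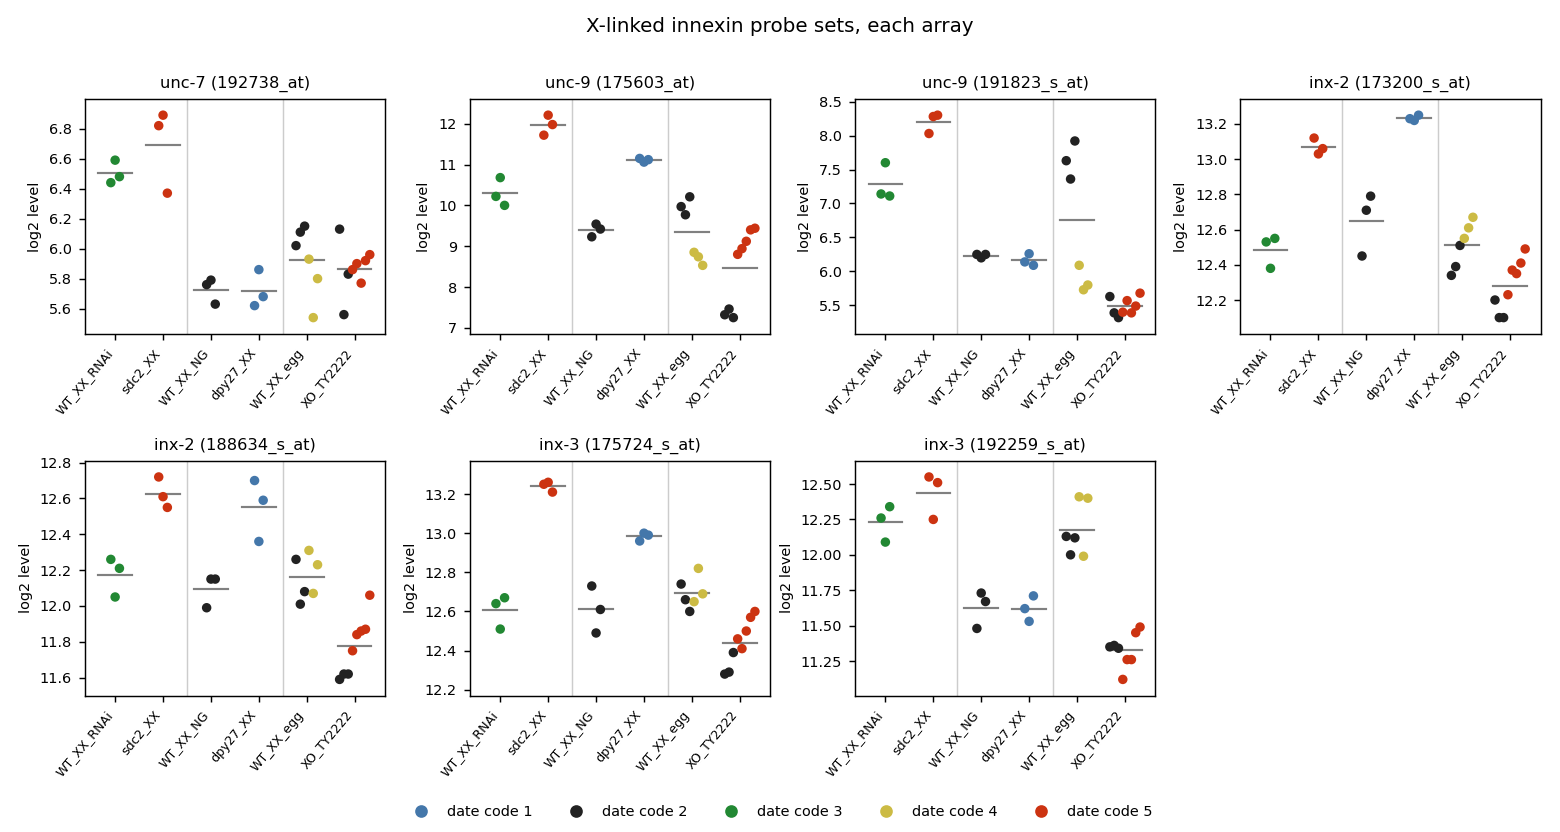
Log2 level (vertical axis, a separate scale per panel) of the 7 X-linked innexin probe sets on each of the 26 arrays, by group. Each point is 1 array coloured by date code, grey bars are group means, and vertical lines part the plate types; on 175603_at the 3 dpy27_XX arrays lie between 11.06 and 11.15 and the 3 WT_XX_NG arrays between 9.23 and 9.54.

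In sdc2_XX embryos unc-9, inx-2 and inx-3 on the X chromosome rose, and the autosomal genes inx-7 and inx-13 fell. Of the 7 X-linked probe sets 4 rose and none fell, where 31.4% of all 3036 X-linked probe sets rose and 0.988% fell. Among the X-linked probe sets brighter than the median, a class that holds 6 of the 7, 45.7% rose. Of the 6 autosomal probe sets 2 fell and none rose, against 14.3% and 4.83% of all 17657 autosomal probe sets. The median change was 0.58 over the 7 X-linked and -0.19 over the 6 autosomal probe sets, beside 0.45 and -0.20 over bright X-linked and bright autosomal probe sets. Among the 6 autosomal members inx-8 and inx-9 are not bright, so these sets are unlike. Over all X-linked and all autosomal probe sets the medians were 0.24 and -0.02. A probe set counts as risen or fallen at a Benjamini-Hochberg adjusted p under 0.05 over all 22548 probe sets, two-sided, from limma.

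UNC-9 forms gap junctions between neurons and between body wall muscle cells, and unc-9 had the largest change of any member in sdc2_XX. On 175603_at its levels were 11.72, 12.21 and 11.98 in sdc2_XX and 10.22, 10.68 and 10.00 in WT_XX_RNAi, so every mutant array lay above every control. The rise was 1.67 on the log2 scale, or 3.18-fold (SE 0.52, adjusted p = 0.0255, 3 against 3 arrays). On 191823_s_at the levels were 8.03, 8.28 and 8.30 against 7.14, 7.60 and 7.11, again without overlap, but the change of 0.92 (SE 0.39) did not pass the test (adjusted p = 0.107). The SE of unc-9 comes from all 26 arrays and takes in the date difference among egg-plate arrays described below. It passed after re-centring on autosomal medians (1.03, adjusted p = 0.0435), joint quantile normalisation (1.08, adjusted p = 0.0335), with array weights (1.02, adjusted p = 0.00144) and in a fit of the compared groups alone (0.92, adjusted p = 0.00299). Over the 15 alternatives the adjusted p on 191823_s_at ran from 8.46e-06, with the dates of a group fitted apart, to 0.878, with date code as a random block (0.51, SE 0.45). The rise on 175603_at lost its call without sdc2_XX replicate B (1.55, adjusted p = 0.0972) or C (1.66, adjusted p = 0.0576), or without WT_XX_RNAi replicate A (1.63, adjusted p = 0.0703) or C (1.52, adjusted p = 0.0975). With date code as a random block the estimate on 175603_at was 0.45 (SE 0.63, adjusted p = 0.945), and over all alternatives its adjusted p ran from 4.52e-08 to that value.

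inx-3, which is broadly expressed in the embryo and needed for its morphogenesis, rose on 1 of its 2 probe sets. On 175724_s_at the sdc2_XX levels were 13.25, 13.26 and 13.21 and the control levels 12.64, 12.51 and 12.67. The mutant arrays lay above all controls, by 0.63 (SE 0.09, adjusted p = 3.35e-05). On 192259_s_at the levels, 12.55, 12.25 and 12.51 against 12.26, 12.09 and 12.34, overlapped, and the change was 0.20 (SE 0.12, adjusted p = 0.266). inx-2 rose on both. Its levels on 173200_s_at were 13.12, 13.03 and 13.06 against 12.53, 12.38 and 12.55, a rise of 0.58 (SE 0.11, adjusted p = 0.00057). On 188634_s_at they were 12.72, 12.61 and 12.55 against 12.26, 12.05 and 12.21, a rise of 0.45 (SE 0.11, adjusted p = 0.00648), and on neither probe set did the groups overlap.

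unc-7, whose protein works with UNC-9 in the locomotor circuit, is X-linked but was not among the changed genes. Its levels were 6.82, 6.89 and 6.37 in sdc2_XX and 6.44, 6.59 and 6.48 in WT_XX_RNAi, with overlapping ranges, and the change was 0.19 (SE 0.15, adjusted p = 0.442).

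The 2 autosomal falls in sdc2_XX were in inx-7 and inx-13. inx-7 stood at 8.30, 8.25 and 8.36 in the mutant and at 9.03, 9.23 and 8.85 in the control, without overlap, a fall of 0.73 on the log2 scale or 1.66-fold (SE 0.12, adjusted p = 0.00025). inx-13, which with INX-12 is needed for the excretory canal, stood at 10.65, 10.36 and 10.75 against 11.16, 11.08 and 11, also without overlap. It fell by 0.50 (SE 0.14, adjusted p = 0.0133), a call lost without sdc2_XX replicate B (-0.38, adjusted p = 0.101) or WT_XX_RNAi replicate B (-0.46, adjusted p = 0.0548). Over all alternatives its adjusted p ran from 0.000785 to 0.526. Its neighbour inx-12 gave -0.14 (adjusted p = 0.537), and its levels of 11.31, 11.31 and 11.50 overlapped the controls' 11.43, 11.46 and 11.64. inx-10, inx-8 and inx-9 gave -0.23, -0.08 and 0.10, with adjusted p of 0.436, 0.714 and 0.572.

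Re-centring each array on its autosomal median moved the median change of all probe sets by 0.11 in sdc2_XX, by 0.18 in dpy27_XX and by -0.02 in XO_TY2222, and the changes given here are relative to the deposited scale. Fitted with date code as a random block (consensus correlation 0.617), none of the 13 probe sets was called by limma in sdc2_XX or in dpy27_XX, where date and genotype coincide; at an unadjusted p under 0.05 there were 4 and 3. The block joins arrays of 1 date code across plate types. sdc2_XX thus shares code 5 with 5 XO_TY2222 arrays, and WT_XX_NG shares code 2 with egg-plate arrays of both groups. WT_XX_RNAi and dpy27_XX share their codes with no other group. For unc-9 on 175603_at in sdc2_XX the random-block fit gave 0.45 in place of 1.67. The other 5 probe sets otherwise called in sdc2_XX gave 0.50 and 0.33 (inx-2), 0.55 (inx-3), -0.58 (inx-7) and -0.49 (inx-13), with SEs of 0.16 to 0.23 and adjusted p of 0.173 to 0.693. The 6 in dpy27_XX gave 1.53 (unc-9, SE 0.61), 0.45 and 0.35 (inx-2), 0.30 (inx-3), 0.66 (inx-10) and -0.34 (inx-13), with adjusted p of 0.126 to 0.488. The early maternal marker list also moved in sdc2_XX: 6 of its 13 probe sets rose and none fell. Of all 22548 probe sets 1880 rose and 2645 fell. The list's mean log2 level ran from 10.44 to 10.83 in sdc2_XX and from 9.82 to 10.18 in WT_XX_RNAi. Its part in the innexin changes was not tested, and in whole embryos a different number of cells of a type and a different amount of RNA per cell cannot be told apart.

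**Figure D2:**
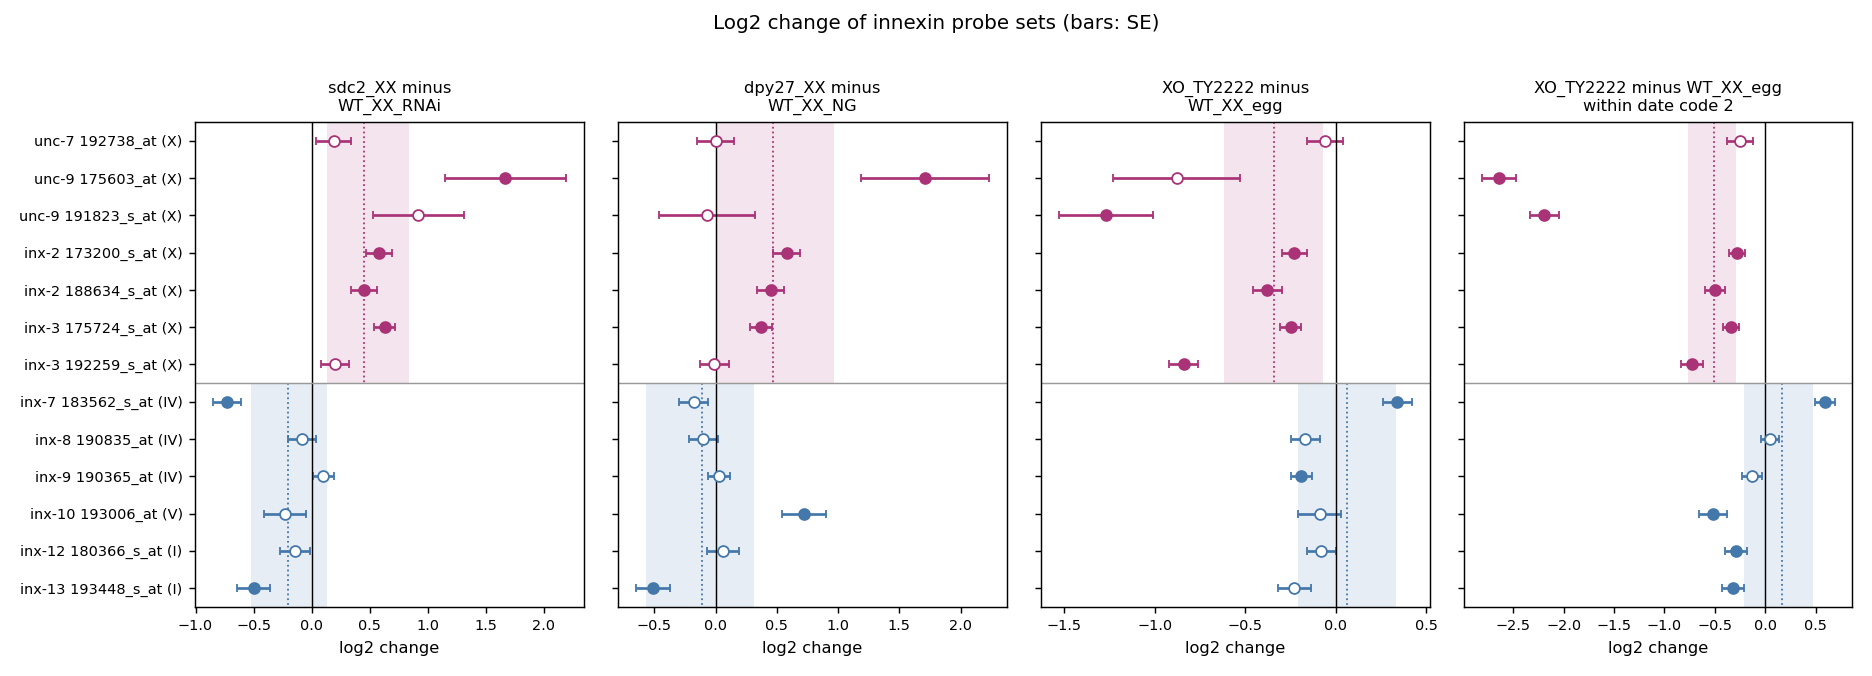
Log2 change (horizontal axis, a separate scale per panel) of the 13 innexin probe sets in the 3 comparisons and, for XO_TY2222, within date code 2; bars are SEs, filled points passed the test, purple is X-linked and blue autosomal. Shading spans the quartiles and dotted lines mark the medians of bright X-linked and bright autosomal probe sets, at 0.45 and -0.20 in sdc2_XX and at -0.34 and 0.06 in XO_TY2222.

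In dpy27_XX embryos the same 4 X-linked probe sets rose: 1 of unc-9, both of inx-2 and 1 of inx-3. None of the 7 fell. Of all X-linked probe sets 37.5% rose and 5.43% fell in this comparison, and 48.5% of the bright ones rose. Of the 6 autosomal members, inx-10 rose and inx-13 fell, against 13.1% and 17.6% of all autosomal probe sets. The median change was 0.37 over the X-linked and -0.03 over the autosomal members, beside 0.47 and -0.11 over bright probe sets of each class. Over all probe sets of each class, dim ones included, it was 0.22 and 0.00. The median of the autosomal members turned to 0.15 after re-centring on autosomal medians.

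The 2 unc-9 probe sets differed most in this genotype. On 175603_at the levels were 11.15, 11.06 and 11.12 in dpy27_XX and 9.23, 9.54 and 9.42 in WT_XX_NG. All mutant arrays lay above all controls, by 1.71 or 3.27-fold (SE 0.52, adjusted p = 0.0142). On 191823_s_at the levels were 6.14, 6.26 and 6.09 against 6.25, 6.20 and 6.25. The groups overlapped, near the middle of their arrays, and the change was -0.07 (SE 0.39, adjusted p = 0.92), with 0.11 after re-centring. The probe positions were not analysed here, so the 2 probe sets of unc-9 could not be placed within its transcripts.

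inx-2 rose by 0.58 (SE 0.11, adjusted p = 0.000201) on 173200_s_at, with levels of 13.23, 13.22 and 13.25 against 12.45, 12.71 and 12.79. On 188634_s_at it rose by 0.45 (SE 0.11, adjusted p = 0.00354), with 12.70, 12.36 and 12.59 against 11.99, 12.15 and 12.15. Neither pair of groups overlapped. inx-3 rose by 0.37 (SE 0.09, adjusted p = 0.0018) on 175724_s_at, where the mutant levels of 12.96, 12.99 and 13 lay above the controls' 12.73, 12.49 and 12.61. On 192259_s_at the levels overlapped, 11.62, 11.53 and 11.71 against 11.48, 11.73 and 11.67, with a change of -0.01 (adjusted p = 0.968). unc-7 stood at 5.62, 5.86 and 5.68 against 5.76, 5.79 and 5.63, overlapping, with a change of 0.00 (SE 0.15, adjusted p = 0.987).

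inx-10, which gave no call in sdc2_XX, rose in dpy27_XX. Its levels were 8.82, 8.53 and 8.96 against 7.68, 8.35 and 8.13, without overlap, a rise of 0.72 or 1.64-fold (SE 0.18, adjusted p = 0.0037). inx-13 fell by 0.51 (SE 0.14, adjusted p = 0.00692), and its levels of 9.62, 9.42 and 9.75 lay below the controls' 9.94, 10.21 and 10.17. inx-7 gave -0.18 (adjusted p = 0.293) although its levels, 8.31, 8.31 and 8.32 against 8.61, 8.47 and 8.40, did not overlap, and the change was 0.00 after re-centring. inx-8, inx-9 and inx-12 gave -0.10, 0.03 and 0.06, with adjusted p of 0.569, 0.828 and 0.758. Leaving out any 1 of the 6 arrays changed the call of none of the 13 probe sets in this comparison.

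**Figure D3:**
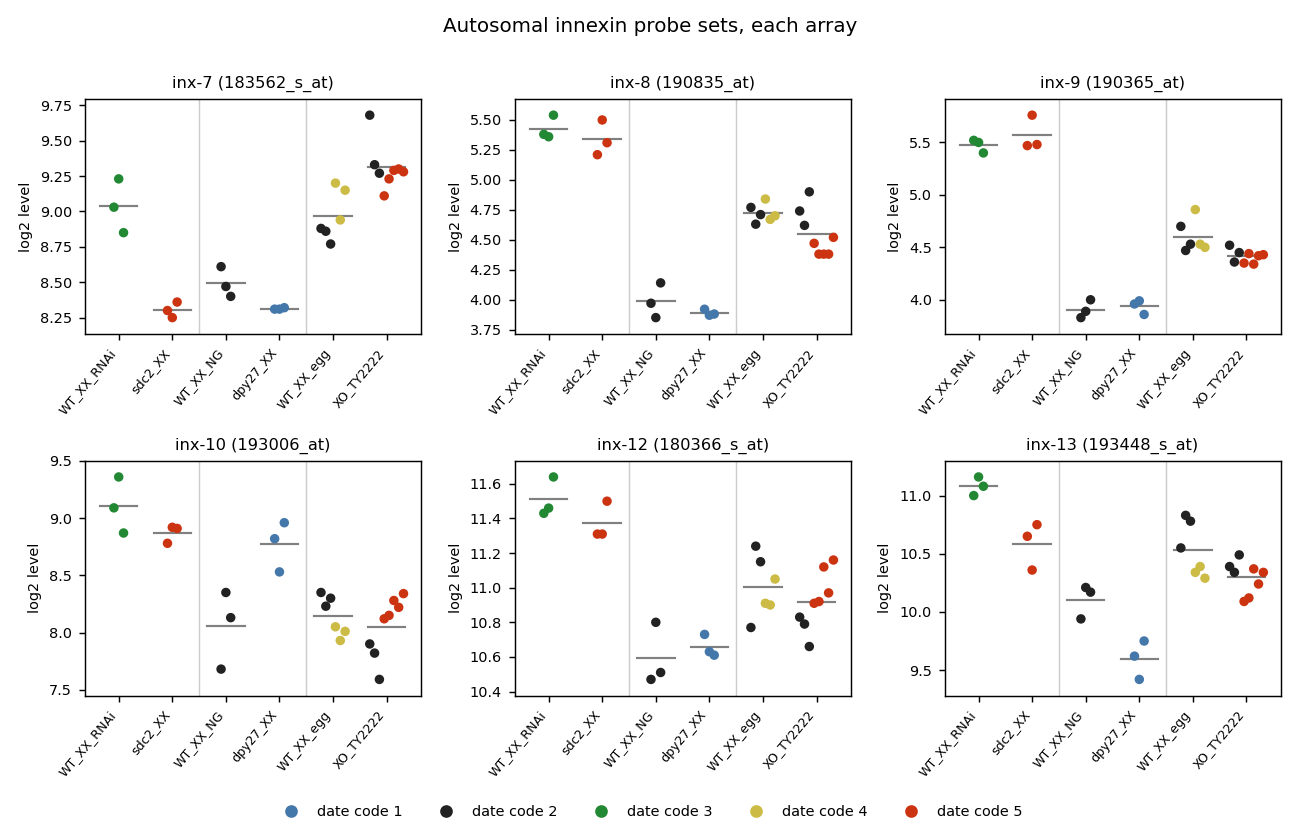
Log2 level (vertical axis, a separate scale per panel) of the 6 autosomal innexin probe sets on each of the 26 arrays, by group, drawn as for the X-linked ones. The 3 sdc2_XX arrays of inx-7 lie between 8.25 and 8.36, below the 3 WT_XX_RNAi arrays at 8.85 to 9.23.

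In XO_TY2222 embryos unc-9, inx-2 and inx-3 were lower than in wild-type XX embryos. Over all dates, 5 of the 7 X-linked probe sets fell and none rose, against 37.5% of all X-linked probe sets that fell and 2.27% that rose. Of the bright X-linked probe sets 52.9% fell. Of the 6 autosomal probe sets inx-7 rose and inx-9 fell, against 18.1% and 12.3% of all autosomal probe sets. Within date code 2, the one date that holds both groups (3 against 3 arrays), 6 of the 7 X-linked members fell, 1 autosomal member rose and 3 fell. Among all probe sets 39.5% were called within that date, with 49.2% of the X-linked ones lower and 39.1% of the autosomal ones called in either direction. The median change over X-linked members was -0.38 pooled and -0.50 within date code 2, beside -0.34 and -0.51 for bright X-linked probe sets. Over autosomal members it was -0.13 and -0.21, beside 0.06 and 0.17 for bright autosomal ones. For all probe sets, dim ones included, it was -0.16 and -0.31 on the X chromosome and 0.01 and 0.05 on autosomes.

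unc-9, the innexin gene mutated in this strain, depended most on the date. On 175603_at the XO_TY2222 levels were 7.32, 7.46 and 7.25 at date code 2 and 8.80, 8.94, 9.12, 9.40 and 9.44 at date code 5. The wild-type levels were 9.97, 9.77 and 10.21 at date code 2 and 8.85, 8.74 and 8.53 at date code 4. The pooled groups overlapped, because the date code 5 mutants reached above the date code 4 controls, and the pooled change of -0.88 (SE 0.35) did not pass the test (adjusted p = 0.0562). That missed call depended on the setting. It passed when any 1 of XO_TY2222 replicates 5C, 5D and 5E or WT_XX_egg replicates 4A, 4B and 4C was left out (-0.97 to -1.04, adjusted p = 0.0279 to 0.0493). It also passed after re-centring (-0.90, adjusted p = 0.0438), with array weights (-0.76, adjusted p = 0.0156), among bright probe sets alone (-0.88, adjusted p = 0.0363), and with date code as a random block (-2.18, adjusted p = 1.52e-06) or a fixed one (-2.64, adjusted p = 1.76e-08). Within date code 2 the groups lay far apart, and unc-9 fell by 2.64 or 6.25-fold (SE 0.17, adjusted p = 3.21e-11).

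On 191823_s_at the XO_TY2222 levels were 5.63, 5.39 and 5.32 at date code 2 and 5.40, 5.57, 5.39, 5.49 and 5.68 at date code 5. The wild-type levels were 7.63, 7.36 and 7.92 at date code 2 and 6.09, 5.73 and 5.80 at date code 4. Here all 8 mutant arrays lay below all 6 controls and showed little difference between dates. unc-9 fell by 1.27 or 2.41-fold pooled (SE 0.26, adjusted p = 0.000556) and by 2.19 or 4.56-fold within date code 2 (SE 0.14, adjusted p = 2.37e-11). The mutant levels stood at the 34.9th to 41.2nd percentile of their arrays. The e101 mutation, the single X chromosome and the other mutations of the strain occur together in it, so their parts in the lower unc-9 level cannot be told apart.

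inx-3 and inx-2 fell on all 4 of their probe sets. inx-3 on 192259_s_at had levels from 11.12 to 11.49 with a median of 11.35 in XO_TY2222, and from 11.99 to 12.41 with a median of 12.13 in WT_XX_egg. The groups did not overlap, and the fall was 0.84 or 1.79-fold pooled (SE 0.08, adjusted p = 3.53e-08), beside a change of -0.73 within date code 2 (adjusted p = 1.51e-05). On 175724_s_at inx-3 ran from 12.28 to 12.60 with a median of 12.44 against 12.60 to 12.82 with a median of 12.67, so the ranges met at 12.60. The change was -0.25 pooled (SE 0.06, adjusted p = 0.00147) and -0.34 within date code 2 (adjusted p = 0.000918), and joint quantile normalisation ended the pooled call (-0.15, adjusted p = 0.0936, in a range from 0.000676).

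inx-2 on 188634_s_at ran from 11.59 to 12.06 with a median of 11.80 in XO_TY2222 and from 12.01 to 12.31 with a median of 12.15 in WT_XX_egg. The ranges overlapped slightly, and the change was -0.38 pooled (SE 0.08, adjusted p = 0.000454) and -0.50 within date code 2 (adjusted p = 0.000169). On 173200_s_at it ran from 12.10 to 12.49 against 12.34 to 12.67, overlapping, with -0.23 pooled (SE 0.07, adjusted p = 0.0156) and -0.28 within date code 2 (adjusted p = 0.00987). The pooled call was lost with joint quantile normalisation (-0.17, adjusted p = 0.111) and with array weights (-0.07, adjusted p = 0.385), in a range from 0.00693. unc-7 gave -0.06 pooled (adjusted p = 0.694) and -0.25 within date code 2 (adjusted p = 0.134), with levels of 5.56 to 6.13 in the mutant and 5.54 to 6.15 in the control.

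Among the autosomal members inx-7 rose in XO_TY2222, opposite to its fall in sdc2_XX. Its levels were 9.68, 9.33 and 9.27 at date code 2 and 9.11 to 9.30 at date code 5, against 8.88, 8.86 and 8.77 at date code 2 and 9.20, 8.94 and 9.15 at date code 4 in the control. The rise was 0.34 pooled (SE 0.08, adjusted p = 0.00209), where ranges overlapped, and 0.59 within date code 2 (adjusted p = 5.31e-05), where they did not. inx-9 fell by 0.19 pooled (SE 0.06, adjusted p = 0.0262) but gave -0.13 (adjusted p = 0.338) within date code 2. Leaving out WT_XX_egg replicate 2A (-0.17, adjusted p = 0.067) or 4A (-0.13, adjusted p = 0.0901) also ended the inx-9 call, whose adjusted p ran from 0.00959 to 0.339 over the alternatives.

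inx-10, inx-12 and inx-13 passed the test within date code 2 and not pooled; their pooled changes were -0.09 (adjusted p = 0.611), -0.08 (adjusted p = 0.495) and -0.23 (adjusted p = 0.057). Within that date inx-10 stood at 7.90, 7.82 and 7.59 against 8.35, 8.23 and 8.30, without overlap, a change of -0.52 (adjusted p = 0.00332). inx-13 stood at 10.39, 10.34 and 10.49 against 10.55, 10.83 and 10.78, also without overlap, with -0.32 (adjusted p = 0.0221). inx-12 overlapped at 10.83, 10.79 and 10.66 against 10.77, 11.24 and 11.15, with -0.29 (adjusted p = 0.0373). inx-8 gave -0.17 pooled (adjusted p = 0.0926) and 0.05 within date code 2 (adjusted p = 0.747). Pooled, inx-8 passed without XO_TY2222 replicate 2C (-0.22, adjusted p = 0.0143), and inx-13 without that array or any 1 of WT_XX_egg replicates 4A, 4B and 4C (-0.26 to -0.28, adjusted p = 0.0254 to 0.0438). With array weights inx-8 (-0.25, adjusted p = 0.00297) and inx-13 (-0.38, adjusted p = 0.000391) passed. inx-13 also passed after re-centring (-0.25, adjusted p = 0.0275), joint quantile normalisation (-0.28, adjusted p = 0.0291) and with date code as a random block (-0.29, adjusted p = 0.0294), as did inx-10 with that block (-0.41, adjusted p = 0.0195).

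Dates of 1 genotype differed in a large share of all probe sets, several innexins among them. In wild-type embryos from egg plates, date code 4 against 2, 1 of the 13 probe sets was higher and 4 were lower, where 37.2% of all probe sets differed. The innexin count was thus near the share over the whole array. unc-9 was lower at date code 4 by -1.28 (SE 0.17, adjusted p = 2.41e-06) on 175603_at and by -1.76 (SE 0.14, adjusted p = 1.04e-09) on 191823_s_at. unc-7 and inx-13 were lower there as well (-0.34 and -0.38, adjusted p = 0.0436 and 0.00729), and inx-7 was higher (0.26, adjusted p = 0.0467). In XO_TY2222, date code 5 against 2, 6 probe sets were higher and 1 was lower, where 39.2% of all probe sets differed. unc-9 was higher at date code 5 by 1.80 (SE 0.15, adjusted p = 3.08e-09) on 175603_at, while 191823_s_at gave 0.06 (SE 0.12, adjusted p = 0.732). The others were both inx-2 probe sets (0.24 and 0.27), inx-3 on 175724_s_at (0.19), inx-10 (0.45) and inx-12 (0.26), with inx-8 lower (-0.33).

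**Figure D4:**
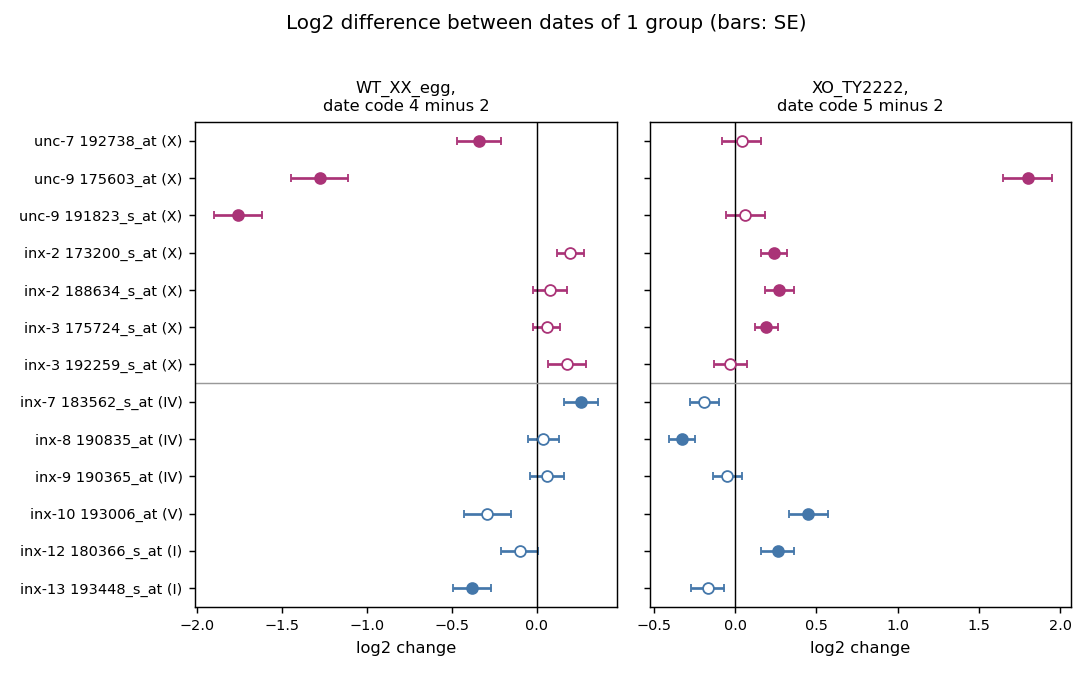
Log2 difference (horizontal axis, a separate scale per panel) between dates of the same genotype for the 13 innexin probe sets; bars are SEs, filled points passed the test, purple is X-linked and blue autosomal. On 175603_at unc-9 lies at -1.28 in wild-type embryos and at 1.80 in XO_TY2222.

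Marker lists of tissues and stages also differed between dates, to different extents. The 17 probe sets of the neuron list had a mean log2 level of 9 to 9.15 in WT_XX_egg at date code 2 and of 8.06 to 8.22 at date code 4, with 13 lower and 1 higher. Between those dates 18 of 23 body wall muscle probe sets were lower and none higher. Of 9 pharynx probe sets 5 were lower and 1 higher. All 13 early maternal and 5 of 6 early zygotic probe sets were higher, and none was lower. The epidermis list gave 1 higher and 5 lower of 16, and the sheath and adult list 1 higher and 2 lower of 10. In XO_TY2222 the mean of the neuron list was 8.10 to 8.48 at date code 2 and 9.13 to 9.34 at date code 5, with 13 higher and 1 lower. There the muscle list gave 9 higher and 4 lower, and the epidermis list 10 higher and 4 lower. The pharynx and early maternal lists each gave 6 higher and none lower. Early zygotic probe sets gave 4 lower and none higher, and the sheath and adult list 1 higher and 5 lower. Within date code 2, XO_TY2222 against WT_XX_egg, 13 of the 17 neuron probe sets were lower and none higher, with a median of -0.99. Of all probe sets 39.5% were called in that comparison, 37.2% between the dates of WT_XX_egg and 39.2% between those of XO_TY2222.

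The muscle and pharynx lists were also lower within date code 2, where 39.5% of all probe sets were called in either direction. The epidermis and early maternal counts given below were near that share, though the calls of each list lay in 1 direction only. The share of all probe sets called in a single direction was not counted there. Of the 23 body wall muscle probe sets 15 were lower and none higher (median -0.57), with means of 8.43 to 8.78 in XO_TY2222 and 9.25 to 9.30 in WT_XX_egg. Of the 9 pharynx probe sets 6 were lower and none higher (median -1.32), at 7.60 to 8.07 against 8.68 to 8.98. Of the 16 epidermis probe sets 7 were lower and none higher (median -0.29), at 9.49 to 9.51 against 9.82 to 9.87. Of the 13 early maternal probe sets 6 were higher (median 0.34), at 10.04 to 10.34 against 9.71 to 10.00, and 1 of the 6 early zygotic ones was higher (median 0.29), at 6.44 to 6.74 against 6.29 to 6.32. The sheath and adult list was low throughout, at 5.68 to 5.85 against 5.71 to 5.77, with 2 of 10 lower. On no array can a level of 0 be read. In XO_TY2222 at date code 2, 1 muscle, 2 sheath and adult and 1 early zygotic probe set lay below the array's lower quartile on every array. The part of these lists in the innexin changes was not tested.

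In the dpy27_XX comparison the muscle list gave 5 probe sets higher and 7 lower of 23, at 8.21 to 8.28 against 8.48 to 8.62 (median change -0.34), and the epidermis list 8 higher and 4 lower of 16, at 9.52 to 9.66 against 9.32 to 9.52 (median 0.31). The neuron list gave 1 higher and 1 lower of 17, at 8.57 to 8.67 against 8.24 to 8.37 (median 0.53). Of all 22548 probe sets 3621 were higher and 3529 lower in dpy27_XX. In sdc2_XX the muscle list gave 4 lower and none higher, at 9.39 to 9.43 against 9.56 to 9.70 (median -0.09). The neuron list gave 2 lower and none higher while its median change was positive, at 0.24, with means of 9.39 to 9.66 against 9.29 to 9.68. The epidermis list gave 3 higher and 2 lower (median 0.20), at 10.24 to 10.36 against 10.20 to 10.24. Of all 22548 probe sets 1880 were higher and 2645 lower in sdc2_XX, and the share of lower neuron probe sets was close to that.

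Whether genotypes differed in their effects was tested in the same model, although these contrasts cross plate types with unequal value distributions. They also hold date differences, since genotype and date coincide in sdc2_XX and in dpy27_XX. The XO_TY2222 effect used is pooled over dates (unc-9 on 175603_at gave -0.88 pooled and -2.64 within date code 2). The effect in sdc2_XX exceeded that in XO_TY2222 for 6 of the 7 X-linked probe sets, all but unc-7, where 16.4% of all probe sets differed in either direction. The differences ran from 0.81 for inx-2 on 173200_s_at to 2.55 for unc-9 on 175603_at (SE 0.63, adjusted p = 0.00617). inx-7 differed the other way, by -1.07 (SE 0.15, adjusted p = 2.07e-05). The effect in dpy27_XX exceeded that in XO_TY2222 for 5 X-linked probe sets and for inx-10, where 22.6% of all probe sets differed. inx-7 was again opposite, at -0.52 (SE 0.15, adjusted p = 0.0112). Both shares are over probe sets of all chromosomes, and the share among X-linked ones was not counted. X-linked probe sets as a class moved the same way. The bright ones had median changes of 0.45 in sdc2_XX, 0.47 in dpy27_XX and -0.34 in XO_TY2222. Between dpy27_XX and sdc2_XX no X-linked member passed the test, and inx-7 (0.55, SE 0.17, adjusted p = 0.044) and inx-10 (0.95, SE 0.26, adjusted p = 0.0198) did, against 9.51% of all probe sets. For the inx-2 probe sets the difference was 0.00 with an SE of 0.15 and 0.16, and for unc-9 on 175603_at it was 0.04 with an SE of 0.74. The other X-linked estimates were lower in dpy27_XX, by -0.99 for unc-9 on 191823_s_at (SE 0.55, adjusted p = 0.305), -0.26 and -0.21 for inx-3 (SE 0.12 and 0.17, adjusted p = 0.201 and 0.504) and -0.19 for unc-7 (SE 0.21, adjusted p = 0.649).

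After joint quantile normalisation of all 26 arrays, levels were ordered across the 6 groups as a description, with neighbours called apart where their means differ by more than the sum of their SDs. unc-9 on 175603_at rose in the order XO_TY2222 (8.47 ± 0.97, SD, n = 8), WT_XX_egg (9.36 ± 0.77, n = 6), WT_XX_NG (9.53 ± 0.18, n = 3), WT_XX_RNAi (10.11 ± 0.38, n = 3), dpy27_XX (11.20 ± 0.04, n = 3) and sdc2_XX (11.76 ± 0.22, n = 3). The lowest 3 groups did not lie apart from each other, and each later group lay apart from the neighbour just below it. For WT_XX_RNAi above WT_XX_NG this was narrow, a gap of 0.58 against summed SDs of 0.56. WT_XX_RNAi did not lie apart from WT_XX_egg, whose spread was wide. On 191823_s_at XO_TY2222 was lowest (5.53 ± 0.12) and sdc2_XX highest (8.13 ± 0.19), and both lay apart from their neighbours. The 4 groups between were WT_XX_NG (6.44 ± 0.02), dpy27_XX (6.46 ± 0.08), WT_XX_egg (6.75 ± 0.91) and WT_XX_RNAi (7.05 ± 0.26). WT_XX_egg, with its wide spread, lay apart from none of the other groups between, whereas WT_XX_RNAi lay apart from WT_XX_NG and dpy27_XX.

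Both inx-2 probe sets and 175724_s_at of inx-3 were highest in dpy27_XX and next in sdc2_XX. inx-2 on 173200_s_at stood at 13.42 ± 0.01 and 12.94 ± 0.04 there, apart from each other and from the other 4 groups at 12.32 to 12.69. On 188634_s_at it stood at 12.83 ± 0.21 and 12.45 ± 0.10, with the rest at 11.78 to 12.20. inx-3 on 175724_s_at stood at 13.22 ± 0.01 and 13.11 ± 0.05, with the rest at 12.42 to 12.68. On 192259_s_at inx-3 was lowest in XO_TY2222 (11.34 ± 0.13), and the top 3, WT_XX_RNAi (12.09 ± 0.11), WT_XX_egg (12.20 ± 0.19) and sdc2_XX (12.23 ± 0.18), did not lie apart from each other.

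Of the autosomal members inx-7 was lowest in sdc2_XX (8.23 ± 0.05) and highest in XO_TY2222 (9.31 ± 0.15), and both lay apart from their neighbours dpy27_XX (8.52 ± 0.01) and WT_XX_egg (8.96 ± 0.16). inx-13 was lowest in dpy27_XX (9.75 ± 0.15), apart from WT_XX_NG (10.25 ± 0.17), and highest in WT_XX_RNAi (10.92 ± 0.08). inx-10 fell into a lower set of XO_TY2222, WT_XX_egg and WT_XX_NG (8.06 to 8.18) and a higher set of sdc2_XX, WT_XX_RNAi and dpy27_XX (8.79 to 8.95). For unc-7 (5.91 to 6.45), inx-8 (4.47 to 4.80), inx-9 (4.51 to 4.81) and inx-12 (10.73 to 11.35) no neighbouring groups lay apart.

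The other innexins on the array, 15 genes with 18 probe sets from a list of 18 symbols, moved in both directions. In sdc2_XX 2 of the 3 X-linked probe sets rose (median 0.45, beside 31.4% of all X-linked probe sets), and of the 15 autosomal ones 2 fell and none rose (median -0.21, beside 14.3% and 4.83%). X-linked inx-1 rose on 175714_at (0.96, adjusted p = 0.024) but gave 0.26 (adjusted p = 0.4) on 187959_s_at. X-linked inx-5 rose as well (0.45, adjusted p = 0.0494). inx-19, which couples olfactory neurons in the embryo, fell on both probe sets (-0.70 and -0.93, adjusted p = 0.023 and 0.00918). In dpy27_XX none of the 3 X-linked probe sets was called (median 0.22), and of the 15 autosomal ones 3 rose and 1 fell (median 0.30, beside 13.1% and 17.6% of all autosomal probe sets): inx-15 (0.72), che-7 (0.53) and inx-20 (0.80) rose, and inx-19 fell on 182198_at (-0.69, adjusted p = 0.0334) but gave 0.40 (adjusted p = 0.168) on 174153_at. In XO_TY2222 2 of the 3 X-linked probe sets fell (median -0.46, beside 37.5% of all X-linked probe sets), and of the 15 autosomal ones 1 rose and 2 fell (median -0.07, beside 18.1% and 12.3%). The germline innexin inx-21 rose on 184609_at (0.60, adjusted p = 0.0033) but gave 0.05 (adjusted p = 0.756) on 175499_s_at. inx-1 on 187959_s_at (-0.46), inx-5 (-0.55) and both inx-19 probe sets (-0.45 and -0.59) fell. On 175714_at inx-1 gave -0.44 (adjusted p = 0.0907). Within date code 2, 12 of the 18 were lower and 2 higher in XO_TY2222, where 39.5% of all probe sets were called.

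The stomatin-like proteins known to act with innexin channels are UNC-1, which UNC-9 channels need to function, and UNC-24. unc-24 rose in dpy27_XX (0.56, adjusted p = 0.0266) and gave -0.26 (adjusted p = 0.397) in sdc2_XX. X-linked unc-1 gave 0.95 (adjusted p = 0.0545) in sdc2_XX, 0.34 (adjusted p = 0.509) in dpy27_XX and 0.00 (adjusted p = 0.999) in XO_TY2222. Within date code 2 both were lower in XO_TY2222, with a median of -0.87, where 39.5% of all probe sets were called.

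The 2 unc-9 probe sets followed each other only in part. Over the 26 arrays, with each plate type centred on its mean, they correlated at 0.635 (Pearson's r), where arrays of a group share genotype and often date. As a description, likeness was ranked among probe sets that name 1 gene and whose SD over these centred values was not below the SD of the unc-9 probe set divided by 2, which left 2479 for 175603_at (SD 0.91) and 5330 for 191823_s_at (SD 0.69). Within those different pools, the probe sets most like 175603_at were those of the X-linked genes sams-1 (r = 0.956), which encodes an S-adenosylmethionine synthetase, bus-8B (0.938) and ccdc-149 (0.933). Those most like 191823_s_at were gtnt-15 (0.930) on chromosome I, X-linked kola-1 (0.912) and gtnt-48 (0.902) on IV.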

How the data were processed

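Total RNA from embryos was labelled as cRNA and hybridised to Affymetrix arrays, 26 in 6 groups. The authors deposited 1 log2 value for each probe set and array, computed by RMA (no version stated) per the submitters' processing notes, from 3.07 to 14.48. The spread of values (SD over probe sets) was 2.41 to 2.45 for NG plates, 2.27 to 2.32 for egg plates and 2.00 to 2.06 for RNAi plates, which is why separate normalisation of the plate types is likely. Arrays give no read depth, and their number limits the precision.

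Probe sets were named with the array annotation (20766 name 1 gene, 887 several, 895 none), and chromosomes were looked up by gene ID in NCBI's WBcel235 table; no coordinates are given, since the array's build is not named. The test was limma 3.58.1 (R 4.3.3), with 1 linear model of 6 group means over all 26 arrays and 22548 probe sets (20 residual and 3.24 prior degrees of freedom), with Benjamini-Hochberg adjustment and no filter. Date differences and the XO comparison within date code 2 come from a fit with separate means for the dates of a group (18 residual degrees of freedom). In simulated data with 100 probe sets changed by 1 on the log2 scale, 86.0% were recovered for sdc2_XX, 84.0% for dpy27_XX and 98.0% for XO_TY2222. Calls among unchanged probe sets numbered 6, 11 and 16 in turn. The simulated arrays were independent and held no date differences, so these rates do not cover dates that coincide with genotype.

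The members and the gene lists were chosen with earlier results of these data known. The text names every member probe set, other innexins past the threshold, 2 stomatin-like partners, and for each unc-9 probe set the 3 probe sets with the highest correlation among those of comparable spread. The alternatives were re-centring on autosomal medians, joint quantile normalisation, fits on the compared groups alone, date code as a term or random block, the replicate letter as a block, array weights, moderation with a trend, bright probe sets alone, and leaving out each array.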

Additional observations from a re-analysis of the deposited data

Results flagged for a closer look

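In XO_TY2222, the array of date code 2 with the letter A was the highest for inx-7, at 9.68, and its gap to the next array made up more of the group's range than Dixon's critical value for 8 arrays allows; 26 groups were checked in this way, and chance flags about 1 in 20.

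Effects that differed between genotypes by the test of the difference (limma, Benjamini-Hochberg adjusted over all probe sets) were the following. Between dpy27_XX and sdc2_XX, inx-7 differed by 0.55 and inx-10 by 0.95. Between sdc2_XX and XO_TY2222, unc-9 differed by 2.55 on 175603_at and 2.19 on 191823_s_at, inx-2 by 0.81 and 0.83, inx-3 by 0.89 and 1.05, and inx-7 by -1.07. Between dpy27_XX and XO_TY2222, unc-9 differed by 2.59 on 175603_at, inx-2 by 0.81 and 0.83, inx-3 by 0.62 and 0.84, inx-7 by -0.52 and inx-10 by 0.81. The dates of XO_TY2222 themselves differed by 1.80 on 175603_at. In sdc2_XX and dpy27_XX genotype and date coincide, so these differences cannot be ascribed to genotype alone.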

How the results depend on the processing

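All probe sets called in sdc2_XX numbered 4525, and 7362 with separate means for the dates of a group, 56 with date code as a random block, 7450 with array weights, and 2760 (without sdc2_XX replicate B) to 4222 when 1 array was left out; without WT_XX_RNAi replicate C they numbered 2952. In dpy27_XX they numbered 7150, and 1671 with the random block; in XO_TY2222 7007, and 10866 with array weights. The members called, 6 in sdc2_XX and 6 in dpy27_XX, fell to 0 in both with the random block; the cause was not tested. The X-linked median moved to 0.69 in sdc2_XX and 0.55 in dpy27_XX on re-centring and to 0.54 in dpy27_XX with joint quantile normalisation, with ranges of 0.53 to 0.61 and 0.31 to 0.40 when 1 array was left out. The autosomal median moved to -0.08 in sdc2_XX and 0.15 in dpy27_XX on re-centring, and to -0.21 in XO_TY2222 within date code 2. No called member changed direction under any alternative. Calls of members gained or lost under an alternative stand in the report beside their results, except that inx-3 on 192259_s_at gained a call in sdc2_XX with array weights (0.25, adjusted p = 0.0328), that date code as a random or fixed block ended the inx-9 call in XO_TY2222 (-0.14 and -0.13, adjusted p = 0.215 and 0.339), and that the fixed block gave calls there for inx-10 (-0.52), inx-12 (-0.29) and inx-13 (-0.32).

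Replicate letters showed no clear pairing of arrays in dpy27_XX or XO_TY2222. Deviations of same-letter arrays correlated at 0.031, -0.304 and 0.114 in dpy27_XX and at 0.055, -0.081 and -0.027 in XO_TY2222. Those of different letters ran from -0.260 to 0.283 and from -0.047 to 0.097. In sdc2_XX the same-letter values were all positive, at 0.049, 0.254 and 0.192, beside -0.299 to 0.200 for different letters. The sdc2_XX arrays carry date code 5 and their controls date code 3, so same-letter arrays there do not share a date. Nothing in the labels names another pairing. With the replicate block 6594, 8768 and 9801 probe sets were called in the 3 comparisons, and 7, 6 and 9 members. It gave calls for unc-9 on 191823_s_at in sdc2_XX (0.92) and for unc-9 on 175603_at (-2.64), inx-10 (-0.52) and inx-13 (-0.32) in XO_TY2222, and ended that of inx-9 there (-0.13).

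The limits are the number of arrays, 3 against 3 in both XX comparisons, dates that coincide with genotype there, and value distributions that differ between plate types. RMA values carry no detection call, so changes of dim inx-8 and inx-9 are the least certain.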
